A study of Mus musculus with 4 samples.

Results

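The genes described here are those of the main milk proteins and of Odam, a secreted protein encoded among the casein genes, in breast cancer cells derived from tumours of MMTV-Neu mice. The 10 genes (Csn1s1, Csn1s2a, Csn2, Csn3, Odam, Wap, Lalba, Ltf, Lcn2 and Mfge8) were taken by name from the non-control probes of a 1-colour Agilent mouse array. They are 10 of the 31896 names on the array and gave 13 of its 39429 probes, 1 probe for 7 of the genes and 2 each for Csn3, Odam and Wap. The value of each gene was chosen by the mean log2 intensity over the 4 arrays (its brightest probe), so brightness is only described. Odam was selected on its measured difference between the groups, since that difference was already known to be large, and it is therefore described without a test.

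In MMTV-Neu mice the mammary tumour virus promoter, which is active in mammary epithelium, drives the Neu (Her2, Erbb2) oncogene. The cells of 2 samples were labelled Pak1-/- (from MMTV-Neu mice lacking the p21-activated kinase Pak1) and those of 2 samples Pak1+/+ (from MMTV-Neu mice with the gene). All were grown in low calcium medium with 5% horse serum, starved of serum for 3 h and given EGF for 15 min, and no prolactin or glucocorticoid treatment is named in the labels. The series design gives separate tumours within each group, whereas the methods speak of tumour-derived cell lines, so the p-values measure the spread between these samples only. The age of the mice and the number of clones were not given in the sources used here.

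Milk proteins are made in bulk by the luminal cells of the lactating gland. The caseins are phosphoproteins that carry calcium in micelles, the whey proteins remain in solution, and others coat the fat globule. Their transcription is switched on by prolactin, whose receptor acts through the kinase Jak2 and the transcription factor Stat5, together with the glucocorticoid receptor, C/EBPβ and Elf5. Odam (odontogenic ameloblast-associated protein) is best known from enamel-forming cells and the epithelium attached to teeth. It belongs to the secretory calcium-binding phosphoprotein family, as the caseins do.

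The promoters of Csn1s1, Csn2 and Odam are shown because these genes lie in 1 cluster and gave 3 different readings on the arrays. Each line holds the 250 bases before the start of the gene, 5′ to 3′, from RefSeq (GRCm38.p6). Capitals mark TTCNNNGAA, the palindromic core that Stat factors recognise, which reads the same on both strands.
Csn1s1 (chr5:87665958-87666207, + strand): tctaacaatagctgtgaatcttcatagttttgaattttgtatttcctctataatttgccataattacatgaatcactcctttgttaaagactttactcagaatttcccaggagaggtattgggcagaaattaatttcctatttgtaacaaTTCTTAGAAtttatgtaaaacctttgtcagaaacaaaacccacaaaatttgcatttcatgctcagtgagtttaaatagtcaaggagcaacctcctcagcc
Csn2 (chr5:87699426-87699675, - strand): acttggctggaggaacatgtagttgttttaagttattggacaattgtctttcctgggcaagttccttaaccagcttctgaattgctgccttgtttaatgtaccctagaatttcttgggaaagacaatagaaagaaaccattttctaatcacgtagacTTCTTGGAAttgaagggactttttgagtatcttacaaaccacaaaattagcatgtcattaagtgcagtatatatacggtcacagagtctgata
Odam (chr5:87884760-87885009, + strand): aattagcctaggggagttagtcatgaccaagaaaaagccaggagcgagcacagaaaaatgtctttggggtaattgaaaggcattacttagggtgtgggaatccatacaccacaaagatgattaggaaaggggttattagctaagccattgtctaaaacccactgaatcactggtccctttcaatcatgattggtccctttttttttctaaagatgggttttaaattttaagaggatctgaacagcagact
The core lay 100 to 92 bases before the start of Csn1s1 and 93 to 85 bases before that of Csn2. A promoter was found for 9 of the 10 genes (Csn3 had none in the table), and only those of Csn1s1 and Csn2 held the core in this window, which is held by 7.02% of all 32851 promoters of that length.

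The arrays were alike in quality. The median spot intensity was 322 to 331 over a median local background of 39.0 to 42.0, and 62.2% to 70.4% of the probes were well above background. The probe named Pak1 had a log2 intensity of 12.23 ± 0.03 (SD, n = 2) in samples labelled Pak1-/- against 12.04 ± 0.002 (SD, n = 2) for the label Pak1+/+, and limma gave 0.19 for the difference (adjusted p = 0.070). A lower Pak1 signal under the label Pak1-/- was thus not seen, and every direction below rests on the labels. Erbb2, also checked, read 11.93 in samples labelled Pak1-/- and 12.23 in samples labelled Pak1+/+ (difference −0.31, limma adjusted p = 0.020). Slide position followed the groups and cannot be told apart from them. Luminal markers were well represented (12 of 15 genes well above background on all 4 arrays, among them Krt8, Krt18, Epcam and Elf5), though Pgr was dim on all. Basal markers were well represented too (7 of 9 genes, among them Krt14 and Trp63).

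Values are normalized log2 intensities, and a difference is the mean of samples labelled Pak1-/- minus that of samples labelled Pak1+/+. A probe passed when its adjusted p in limma, over all 27229 probes tested, was under 0.05. Besides Odam, which was higher and is only described, 3 of the genes (Csn1s1, Csn1s2a and Mfge8) were higher under the label Pak1-/- and 0 were lower, and 1 of the 3, Csn1s2a, had passed the filter on dim probes through that group only. Over all probes tested 51.9% passed, 23.3% higher and 28.6% lower. At an unadjusted p under 0.05, 1 of the genes (Ltf) was lower. Ltf and Lalba were tested and did not pass, the brightest probes of Csn3 and Lcn2 were saturated on every array, and Csn2 and Wap failed to rise well above background on any array. The genes of milk proteins therefore did not move as 1 group, as the plot of every probe on every array shows.

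**Figure D1:**
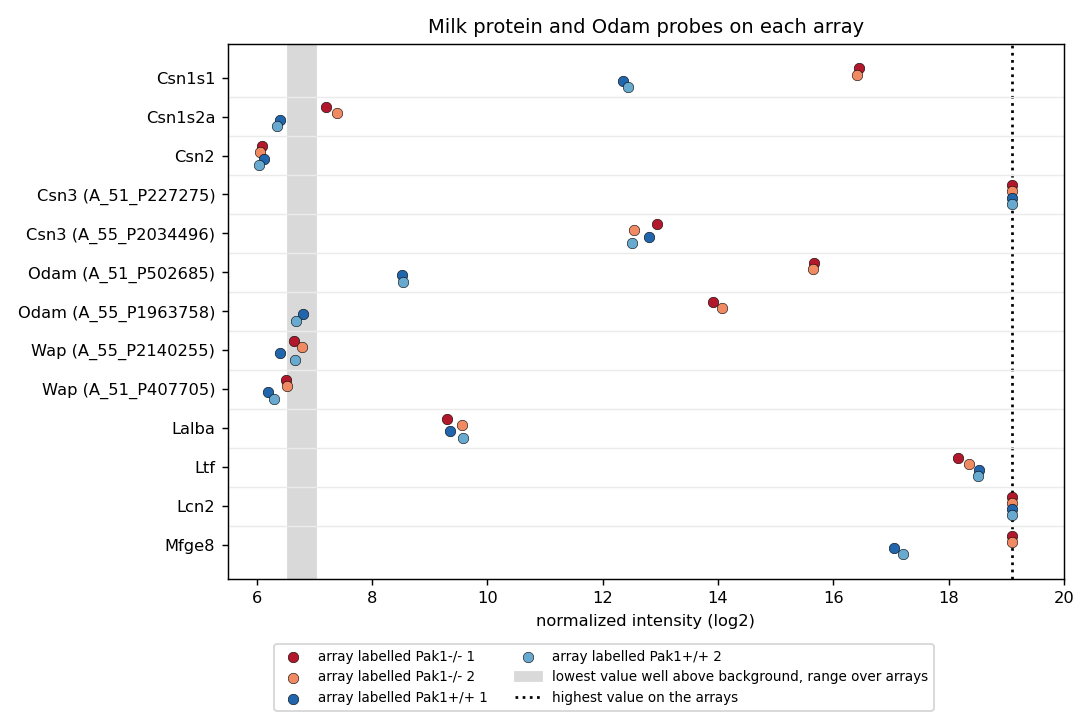
Normalized log2 intensity (x axis) of the 13 probes (rows) on the 4 arrays, with red and orange points for samples labelled Pak1-/- and blue points for samples labelled Pak1+/+. The grey band is the range over the arrays of the lowest value well above background (6.55 to 7.03) and the dotted line the highest value on the arrays (19.10), where the brighter Csn3 probe, Lcn2 and the Pak1-/- points of Mfge8 lie. The groups are widely apart for Odam and Csn1s1.

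Among the caseins, the first to be described is Csn1s1 (αs1-casein, a main calcium-binding component of the micelle). Its probe (A_51_P491378, mm9 chr5:88111332-88111391) had raw spot intensities of 79149 and 87244 in samples labelled Pak1-/- and of 5401 and 5358 in samples labelled Pak1+/+. On the normalized scale these were 16.45 and 16.41 against 12.36 and 12.44. Csn1s1 was thus bright on all 4 arrays, and the groups did not overlap. The difference was 4.03 (SE 0.07, adjusted p = 4.51e-05), or 16.4-fold, while the replicates of a group lay at most 0.077 apart. In bulk cells, more cells with the transcript and more transcript per cell cannot be told apart.

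Csn1s2a (an αs2-like casein) was faint (A_51_P422143, chr5:88217726-88217785). The normalized values were 7.20 and 7.39 in samples labelled Pak1-/-, both well above background, and 6.40 and 6.36 on the others, neither of which was. The fitted difference of 0.91 (SE 0.09, adjusted p = 0.00187) became 1.68 without the offset added to the intensities and 2.47 with the processed signal scaled to the 75th percentile. The probe was at least 1.34-fold higher in samples labelled Pak1-/-. Csn2 (β-casein, the most studied target of prolactin in mammary cells) was not detected in either group: its values were 6.09 and 6.06 against 6.13 and 6.04, none well above background (A_51_P446395, chr5:88121767-88121826). The Stat core shown above is thus held by the promoter of a gene that was bright and differed and by that of a gene whose probe stayed dim.

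For Csn3 (κ-casein, which stabilises the surface of the micelle and is not related by sequence to the calcium-binding caseins) the 2 probes gave different information. The brighter (A_51_P227275, chr5:88361449-88361508) was at the ceiling of the scanner on every array, with raw intensities of 561570, 563151, 564157 and 562066 where saturation was set at 561427 to 564013, so it carries no comparison. The other (A_55_P2034496, chr5:88361092-88361151) was within range, at 12.95 and 12.54 in samples labelled Pak1-/- and 12.80 and 12.51 in samples labelled Pak1+/+. The groups overlapped on that probe, and the difference of 0.09 did not pass (95% interval −0.38 to 0.56, adjusted p = 0.70). The replicates were 0.41 and 0.28 apart, more than the group means.

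Odam had the widest difference among those of the 10 genes whose levels could be measured in both groups. One probe (A_51_P502685, chr5:88323020-88323079) read 47443 and 52522 in raw intensity in samples labelled Pak1-/- and 355 and 346.5 on the others, or 15.66 and 15.64 against 8.53 and 8.53 after normalization. All 4 values were well above background. The ratio of the group means was 140-fold, a difference of 7.12 on the log2 scale, with replicates at most 0.021 apart. The other probe lies further upstream in the gene and is shown because it gave the same direction on a stretch of its own (5′ to 3′, mm9 chr5:88316448-88316507).
A_55_P1963758: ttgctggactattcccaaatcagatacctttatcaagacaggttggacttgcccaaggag
It read 13.92 and 14.06 in samples labelled Pak1-/- and 6.80 and 6.69 in samples labelled Pak1+/+, where it was not well above background, so that it was at least 135-fold higher in the former. Both probes were thus bright in samples labelled Pak1-/-, and in the others 1 was near the median spot and 1 was dim.

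**Figure D2:**
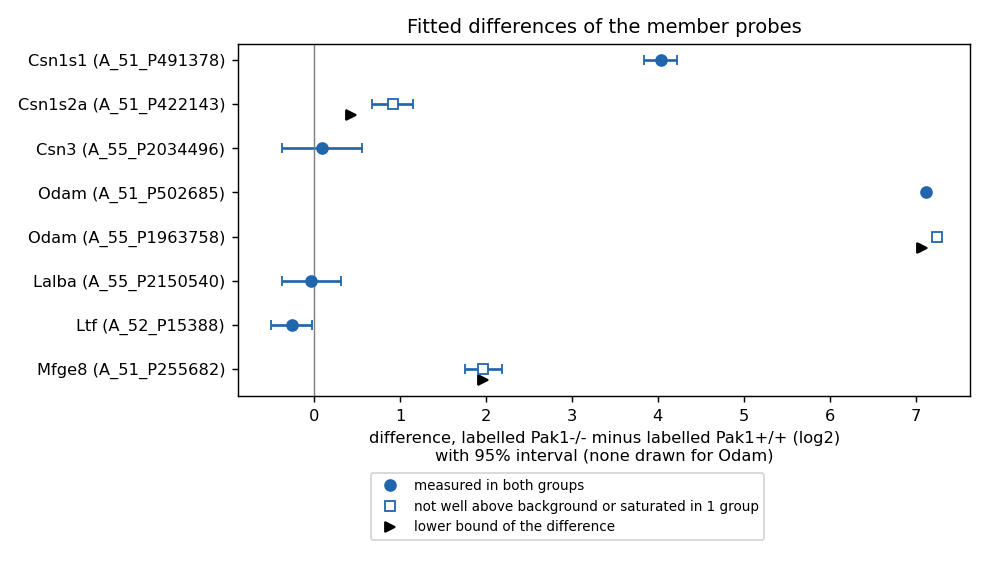
Difference between the groups (x axis, log2) for the 8 member probes with a fitted value, with 95% intervals from limma except for Odam. Filled circles were measured in both groups, and open squares were not well above background or saturated in 1 group, with the lower bound as an arrowhead: the Odam probes stand at 7.12 and 7.25, Csn1s1 at 4.03 and Mfge8 at 1.97, while the intervals of Csn3 and Lalba span 0.

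Of the whey protein genes Wap and Lalba, only Lalba could be tested, and it did not pass. Wap (whey acidic protein, a protease inhibitor-like protein of rodent milk) had 2 probes, and neither was well above background on any array. The brighter (A_55_P2140255, chr11:6536714-6536773) read 6.65 and 6.78 against 6.41 and 6.67. The other (A_51_P407705, listed at chr11:6535486-6535509) read 6.50 and 6.53 against 6.19 and 6.29, so that its groups did not overlap, as for 78.2% of the probes tested. Lalba (α-lactalbumin, the subunit that makes galactosyltransferase synthesise lactose) was well above background on all 4 arrays (A_55_P2150540, chr15:98310831-98310890), at 9.30 and 9.56 in samples labelled Pak1-/- and 9.35 and 9.57 in samples labelled Pak1+/+. Its groups overlapped, and the difference of −0.034 (SE 0.13, adjusted p = 0.85) had a 95% interval of −0.38 to 0.31 and changed sign with the scaling.

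Ltf and Lcn2 are proteins of milk and other secretions that withhold iron from microbes, lactoferrin by binding iron itself and lipocalin 2 by binding bacterial siderophores. Both were close to the top of the scale. Ltf (A_52_P15388, chr9:110942873-110942932) had raw intensities of 243606 and 324716 in samples labelled Pak1-/- and 421984 and 407499 in samples labelled Pak1+/+, below saturation, and normalized values of 18.16 and 18.35 against 18.52 and 18.51. All values of the first group were below those of the second, but the difference of −0.26 (SE 0.09) did not pass (unadjusted p = 0.037, adjusted p = 0.067). Scaling the same background-corrected values to the 75th percentile, in place of quantile normalization, gave −0.56 (adjusted p = 0.015), and Ltf was lower under all 14 settings (−0.58 to −0.17, adjusted p = 0.015 to 0.19), past the threshold in 4 of them. Without the second array labelled Pak1-/- the difference was −0.36 (adjusted p = 0.037).

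Lcn2 (A_55_P2070869, chr2:32240199-32240258) was saturated on all 4 arrays, at 561572 and 563151 in raw intensity in samples labelled Pak1-/- and 564158 and 562065 on the others. It was thus very bright in both groups, and whether the groups differed was not measurable. In all, 30 probes of the array were saturated on every array, and those of Csn3 and Lcn2 are among them. Since neutrophil granules also hold Ltf and Lcn2, neutrophil markers were examined beside them. Of the 11 other genes of that list, the granule genes Ngp and Mmp8 failed to rise well above background on any array. The granule genes Camp, Elane and Prtn3 were among 7 genes well above it on all 4, with Elane at 11.95 and 11.88 in samples labelled Pak1-/- against 12.01 and 12.18. The brightest was Csf3r, at 17.18 and 16.71 against 16.59 and 16.48, and it carried most of the summed level, which was 16.85 to 17.28 in samples labelled Pak1-/- and 17.17 to 17.21 in samples labelled Pak1+/+. In limma 3 of these genes were lower (Cd177 at −5.20, S100a9 at −3.44 and S100a8 at −2.38 on the log2 scale, adjusted p = 4.17e-05, 0.000921 and 0.000161) and 0 higher, and at this threshold 5 others did not pass. Across all genes tested, 28.2% were lower and 22.8% higher.

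Mfge8 (lactadherin, a protein of the fat globule membrane that also bridges dying cells to phagocytes) was higher in samples labelled Pak1-/-. Its probe (A_51_P255682, chr7:86278689-86278748) read 559920 and 563152 in raw intensity there, flagged as saturated on both arrays, and 150213 and 164135 in samples labelled Pak1+/+. The normalized values were 19.10 and 19.10 against 17.06 and 17.21. With the first pair at the ceiling, the ratio is a bound, of 3.92-fold or 1.97 on the quantile normalized log2 scale (limma, adjusted p = 0.000214). The bound depends on the scaling. It was lower with the processed signal (1.83) or the normexp values (1.84) scaled to the 75th percentile. The ceiling also sets the small spread of the saturated pair, so the p-value does not measure the spread of those samples. Of all probes, 3 were saturated on both arrays of that group but not on both of the other, namely those of Mfge8, Clu and Tm4sf1, while 17 were saturated on both arrays of samples labelled Pak1+/+ but not on both of the first group.

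The casein genes and Odam lie together on chromosome 5, with probes spread over 250.2 kb, and the region out to 500 kb on either side was examined to see which neighbours moved. It held 36 probes, of which 16 failed to rise well above background on any array, 3 were well above it on 1 array only and 1 (Csn3) was saturated. Of the 14 that remained beside the 2 Odam probes, 5 were higher, 2 lower and 7 did not pass, where 23.3% of all probes tested were higher and 28.6% lower. The 5 higher probes were those of Csn1s1, Csn1s2a, Csn1s2b, BC037156 and Smr2, and those of Csn1s2a and BC037156 had passed the filter only through the group in which they were higher.

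Csn1s2b (another αs2-like casein, next to Csn1s2a) had 2 probes in that region. The brighter read 9.97 and 10.08 in samples labelled Pak1-/- and 7.66 and 7.66 in samples labelled Pak1+/+, a difference of 2.36 (SE 0.07, adjusted p = 0.000118). On the other probe the difference was 0.22 (adjusted p = 0.37), with values of 7.31 and 7.15 against 7.26 and 6.76. That probe was faint, with raw intensities of 94 to 142, and was well above background on only 1 array labelled Pak1+/+. The readings thus differ, but a probe so close to background is a weak check of the brighter one. BC037156, between Odam and Csn3, was at least 1.32-fold higher (adjusted p = 0.00958), and Smr2, a salivary protein gene, rose by 0.36 (adjusted p = 0.0111). The higher genes were thus not all next to each other: between genes that were higher lay Csn2 and Prr27, whose probes were dim, and Gm7337, with a difference of 0.21 that did not pass (adjusted p = 0.17). Past Csn3, the probes of BC051076, 2310003L06Rik, Cabs1, Smr3a, Gm7714, Prol1 and Amtn failed to rise well above background on any array, as did those of Ugt2a3, Ugt2b38 and Sult1d1 on the Csn1s1 side. Sult1b1 and Sult1e1 were well above it on 1 array each, and the differences of Ugt2b37 (−0.15) and Ugt2a1 (−0.036) did not pass. The 2 lower probes had no gene name and differed by −1.10 and −0.57.

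**Figure D3:**
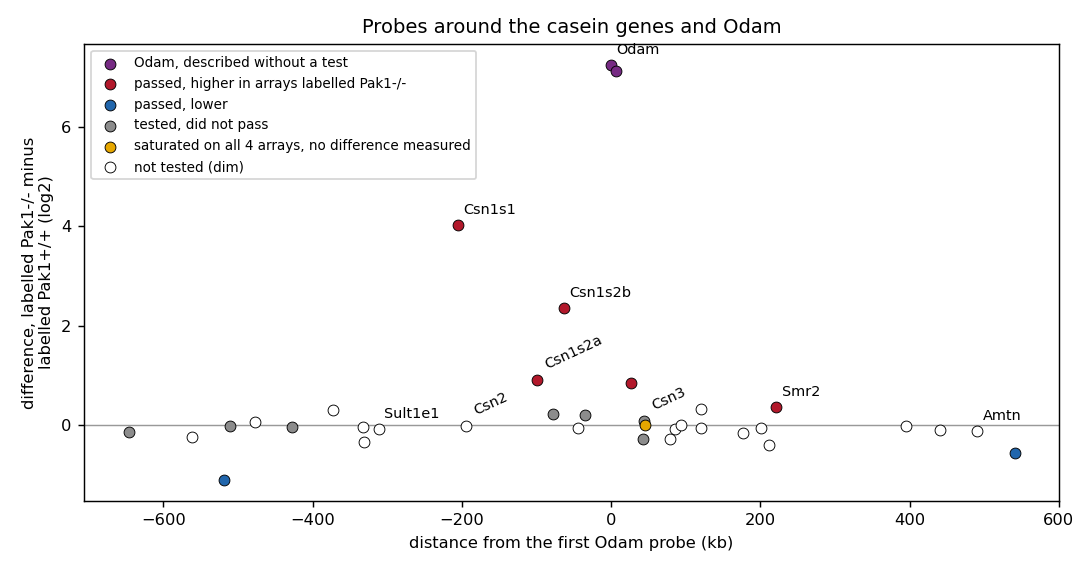
Difference between the groups (y axis, log2) of the 36 probes around the casein genes and Odam, by distance from the first Odam probe (x axis, kb). Purple points are the Odam probes, described without a test, red points passed and were higher in samples labelled Pak1-/-, blue points passed and were lower, grey points did not pass, white points were too dim to be tested, and the yellow point is the saturated Csn3 probe; the 5 red points lie among dim probes and probes that did not pass.

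To place Odam beside other proteins of this kind, 13 genes of tooth and bone matrix were examined. Amtn, Ambn, Enam, Amelx, Mmp20 and Dmp1, which serve enamel and dentine, failed to rise well above background on any array, and Dspp was well above it on 1 array. Of 6 genes tested, Sparc was higher (12.45 and 11.99 against 8.77 and 9.03, a difference of 3.32, adjusted p = 0.000429), Spp1 (osteopontin) fell by 2.41 (adjusted p = 0.00191) and Sparcl1 fell by 2.80 (adjusted p = 8.08e-05), while Klk4, Mepe and Ibsp did not pass. The median of the 6 differences was −0.24, against −0.052 over all probes tested. Among all genes tested, 22.8% were higher and 28.2% lower.

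Across the 4 arrays genes with a profile near to that of Odam, by the Euclidean distance between log2 values less their mean and out of 21964 genes, were Ifit1 (distance 0.18) and, with no distance given because they were not well above background in samples labelled Pak1+/+, Trim12a and Cyba. Those near Csn1s1 included the gene listed as LOC547349 (0.13) and, dim in the same samples, Man1c1 and Nlrc5. The nearest were for Lalba Gm9112 (0.033), Ybey (0.049) and Camk2a (0.051), and for Ltf Ndufaf2 (0.015), Ccdc85c (0.016) and Ap3s1 (0.017). None are given for Csn1s2a and Mfge8, whose differences are bounds. For Odam and Csn1s1, with close replicates in 2 groups, the distance mostly follows the size of the difference between the groups. Ifit1 differed by 7.25 and LOC547349 by 3.93, near the values of Odam and Csn1s1. Odam was selected on that difference, so its neighbours are only described, and shared regulation was not tested.

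The pathway that turns milk genes on was examined through 24 genes of prolactin and Stat5 signalling. Of 21 tested, 10 were higher, 5 lower and 6 did not pass, with a median difference of 0.11. By their brightest probes, 22.8% of all genes tested were higher and 28.2% lower. The receptor and several factors that act with it did not pass: Prlr (−0.19, adjusted p = 0.082), Jak2 (−0.21, 0.056), Stat5b (−0.25, 0.076), Elf5 (−0.35, 0.058) and Nr3c1, the glucocorticoid receptor (−0.38, 0.051). Each of these was lower, at an unadjusted p in limma of 0.026 to 0.047. Stat5a was higher by 0.43 (adjusted p = 0.00805). With the filter set at all 4 arrays, so that fewer probes entered the adjustment, Jak2 (adjusted p = 0.047), Elf5 (0.045) and Nr3c1 (0.038) passed and were lower, and 8 genes of the list were lower in place of 5 (limma). Cish, a feedback inhibitor, read 12.22 and 12.12 against 10.64 and 11.02, a difference of 1.34 (adjusted p = 0.00219). Socs2, another inhibitor of the same receptors, read 14.06 and 13.93 against 16.37 and 16.03 and fell by 2.20 (adjusted p = 0.000547).

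Other higher genes of that list were Ghr (growth hormone receptor, 2.40), Socs1 (1.35) and Nfib (a transcription factor at milk gene enhancers, 1.08), and other lower ones were Socs3 (−1.60), Id2 (−0.61) and Cebpb (−0.44), all with adjusted p no higher than 0.0176. Pgr and Tnfsf11 failed to rise well above background on any array, and Erbb4 was well above it on 1 array.

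Other secreted proteins of milk also went both ways, as did the genes of the array as a whole. Of 16 genes (15 tested), 4 were higher, 7 lower and 4 did not pass, and the median difference was −0.36. Over all genes tested by their brightest probe, 22.8% were higher and 28.2% lower. The 7 include Pigr (the receptor that carries antibodies into milk, −0.54, adjusted p = 0.0162), whose other probe passed in the opposite direction. The counted Pigr probe is listed at chrX:118770552-118770611, and whether it reads this gene was not tested. The direction of Pigr is therefore not settled by its probes. Trf (transferrin, the iron carrier of blood and rodent milk) read 14.29 and 14.19 in samples labelled Pak1-/- and 18.51 and 18.47 in samples labelled Pak1+/+, a difference of −4.25 (SE 0.08, adjusted p = 4.51e-05). This is similar in size to that of Csn1s1 and opposite in direction. The other lower genes included Spp1 (−2.41), Folr1 (a folate receptor, −2.21) and Cd14 (a lipopolysaccharide co-receptor that is shed into milk, −1.70), with adjusted p of 0.00191, 0.000742 and 0.000545. Higher were Muc15 (a mucin of the fat globule, 2.62, adjusted p = 0.00109), Csn1s2b (above), Wfdc18 (0.59, adjusted p = 0.00754) and Clu (clusterin, adjusted p = 0.00862). The Clu probe was saturated in samples labelled Pak1-/-, and its bound was 1.44-fold on the quantile normalized scale. Its raw intensities, 561571 and 563151 against 409358 and 445074, give a smaller ratio. Glycam1, a marker of the lactating gland, was not well above background on any array.

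Genes of milk fat and of the onset of secretion were counted in the same way. Of 28 genes (26 tested), 8 were higher, 10 lower and 8 did not pass, with a median difference of −0.17. In the whole set of genes tested, 22.8% were higher and 28.2% lower. The higher ones were led by Gjb2 (a gap junction protein, 1.34), Plin2 (the coat of lipid droplets, 1.28), Slc2a1 (the glucose transporter of mammary cells, 1.22) and Aldoc (0.75). Thrsp, a regulator of fatty acid synthesis, was 8.05 and 8.22 against 11.94 and 11.98, a difference of −3.82 (SE 0.09, adjusted p = 6.72e-05). Next among the lower genes were Aqp5 (a water channel, −2.68), Slc34a2 (a phosphate transporter, −1.69) and Xdh (which binds butyrophilin at the fat globule, −1.37). Each of the other genes named here with a value had an adjusted p of at most 0.00313.

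Acute phase and antimicrobial genes were examined as company for Ltf and Lcn2. Of 24 genes, 22 had a probe and 19 were tested: 6 were higher, 7 lower and 6 did not pass, with a median difference of −0.16. The shares over all genes tested were 22.8% higher and 28.2% lower. Saa3 (serum amyloid A3, also made in the mammary gland) was 13.13 and 12.95 against 9.07 and 9.58, a difference of 3.72 (adjusted p = 0.00035). Slc22a17, which has been described as a cell surface receptor of lipocalin 2, was higher by 2.97 (adjusted p = 0.000169), as were Cp (ceruloplasmin, 1.29, adjusted p = 0.00149) and Saa2 (at least 1.63-fold, adjusted p = 0.000756), which passed the filter only through the group where it is higher. S100a9 and S100a8 were lower, as given above, and so were Orm1 (−2.30, adjusted p = 0.000161) and Pglyrp1 (−2.22, adjusted p = 0.00127).

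**Figure D4:**
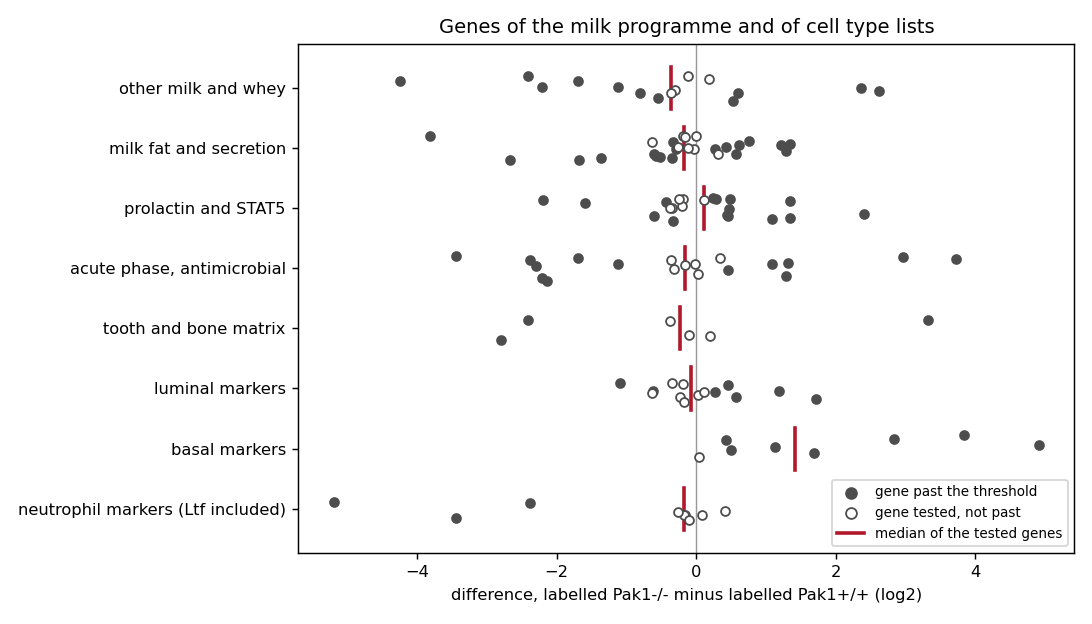
Difference between the groups (x axis, log2) of the brightest probe of each tested gene in 8 lists (rows), filled where the gene passed the threshold and open where it did not, with the median of the list as a red bar. The medians of the milk, prolactin and acute phase lists lie between −0.36 and 0.11 with genes on both sides, and that of the basal markers is at 1.41.

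Markers of basal epithelium moved with the groups as well. Of the basal epithelial markers, 7 were higher and 0 lower of 8 tested in limma (at an unadjusted p under 0.05 the count of lower genes was also 0), led by Krt17 (4.92), Oxtr (the oxytocin receptor of the cells that eject milk, 3.84), Krt14 (2.83) and Acta2 (1.69), all with adjusted p no higher than 0.0026. For all genes tested the shares were 22.8% higher and 28.2% lower. The summed level of the 9 basal genes was 16.49 to 16.64 in samples labelled Pak1-/- and 14.26 to 14.30 in samples labelled Pak1+/+, and Myh11, a defining gene of contractile myoepithelium, was not well above background on any array. Luminal markers were summed at 20.26 to 20.28 and 20.14 to 20.17, with 5 higher (among them Foxa1 by 1.71 and Cdh1 by 1.19), 2 lower (Krt7 at −1.10 and Kit at −0.61) and 7 not past the threshold, and with the filter at all 4 arrays 4 were lower in place of 2, with Elf5 and Epcam added. The part of these shifts in the values of Csn1s1, Odam and Mfge8 was not tested.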

How the data were processed

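RNA of 4 samples was measured on 1-colour (Cy3) Agilent mouse arrays with 60-base probes. The deposited intensities are linear scanner output of Feature Extraction 9.5, without normalization between arrays, and come with mm9 probe positions. The authors also deposited log2 values, which their methods describe as normexp corrected and quantile normalized.

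Here, spot and background intensities were corrected with normexp (offset 50) in limma 3.58.1 (R 4.3.3), control spots were removed, log2 values were quantile normalized and the unflagged spots of a probe averaged. The 27229 probes that stood well above background on 2 or more of the 4 arrays were fitted with lmFit and eBayes, genotype as the only term, with Benjamini-Hochberg adjustment over all of them. The offset and the filter were chosen here. With 2 residual degrees of freedom the prior added 2.62, and an exact permutation test of 2 against 2 cannot go below 0.333. Quantile normalization gives every array the same highest value. Where a group had a probe dim or saturated on both its arrays, a bound is given, the ratio to the higher of its own value and the lowest value well above background on each array. These bounds hold on the quantile normalized scale, and other scalings shift them. The number of arrays limits the precision.

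The 10 genes and all lists were chosen with earlier results of these data known. All member probes are named, and up to 4 genes per list and direction by size among those past the threshold, with the brightest probe for each gene and names through RefSeq (GRCm38.p6; 26055 of 32334 accessions matched). Pak1 and Erbb2 were named as checks of the labels. Other genes named beyond that rule (Stat5a, Pigr and those dim or not past the threshold) were chosen after their values were seen. The fit was tested on simulated data. Alternatives changed the background correction, scaling, filter, prior, threshold, block, probe rule and samples.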

Additional observations from a re-analysis of the deposited data

How the results depend on the processing

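Csn1s1 and Mfge8 were higher and past the threshold under every alternative that held their probes, and Csn1s2a except where 2-fold was also required, which it missed, and with the filter at all 4 arrays, where it was not tested. The count of 4 higher genes, Odam included as a description, became 2 with the authors' table, which has no value for Mfge8 or for the brighter Odam probe. The count of lower genes became 1 (Ltf) with the processed signal or the normexp values scaled to the 75th percentile, likewise with a trended robust prior, and was 0 to 1 in leave-one-out fits (1 without the second sample labelled Pak1-/-), which assume for a group left with 1 sample the spread of the other. The cause was not tested. Over all probes, 14132 passed. Stricter limits left 8878 (adjusted p under 0.01) or 3413 (2-fold also required).

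Lalba, which never passed, changed sign with the processed signal (0.020) or the normexp values (0.012) scaled to the 75th percentile, as it did with cyclic loess (0.063). Leaving out 1 sample at a time (leave-one-out) gave −0.167 to 0.099. Of the counts over the lists, 39 kept within 1.5 times and 5 moved. With the filter at all 4 arrays the lower prolactin and luminal genes went from 5 to 8 and from 2 to 4 and the higher fibroblast genes from 2 to 1. With cyclic loess the higher tooth and bone genes went from 1 to 2 and the higher leukocyte genes from 0 to 1.

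The replicate numbers pair no samples by their labels, and the correlation of replicate differences between the groups was −0.028 (over probes, which are not independent). With the replicate block, 13211 probes passed and no call of a member gene changed. Without a filter, the probes of Csn2 (adjusted p = 0.94) and Wap (0.34 and 0.061) did not pass. Signal limits Csn2 and Wap from below and Csn3, Lcn2 and Mfge8 from above.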

Other observations

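The table of log2 values deposited by the authors held values for 6 of the 13 probes. It was empty for the probes that were dim on all arrays (Csn2 and both of Wap) and for the saturated probes of Csn3, Lcn2 and Mfge8. It was also empty for the brighter Odam probe, which was well above background and not saturated on any array, and held the other Odam probe at 13.94 in the first array labelled Pak1-/- and 6.55 in the first labelled Pak1+/+.

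Markers of other cell types of the tumour were measured too. Of 8 fibroblast genes, 4 (Col3a1, Pdgfrb, Dcn and Lum) were dim on all arrays, and of 4 tested Col1a1 (1.12, adjusted p = 0.00512) and Postn (at least 10.4-fold, adjusted p = 0.0018) were higher in samples labelled Pak1-/-, Postn having passed the filter only through that group. Col1a2 and Pdgfra were well above background on all arrays and did not pass. Of 10 leukocyte genes, 6 were well above background on all arrays and Tyrobp and Laptm5 on none. The brightest was Itgam, at 16.07 and 15.51 in samples labelled Pak1-/- against 15.39 and 15.20, and the differences of Itgam (0.49, adjusted p = 0.11), Cd3e (0.25, adjusted p = 0.086) and Csf1r (0.12, adjusted p = 0.58) did not pass, though Cd3e did with cyclic loess (0.33, adjusted p = 0.035). Of 7 tested Ptprc (−0.45, adjusted p = 0.00559) and Coro1a (−0.93, adjusted p = 0.00458) were lower. Of 7 adipocyte genes, Adipoq and Lep were dim on all arrays, and of 2 tested Retn was lower (−0.49, adjusted p = 0.0182). These counts stand beside 22.8% higher and 28.2% lower over all genes tested.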
